A study of Mus musculus with 9 samples.

Results

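A hepatocellular carcinoma was compared with wild-type mouse liver, gene by gene, over 6 of the 9 arrays of the study. The tumor arrays were the 3 labelled Het Tumor and the wild-type arrays the 3 labelled Normal, so the members were chosen by label and not by any measured value. The carcinoma came from a male SART1+/- mouse, written SART+/- in the design text, and its tissue is described as carcinoma with severe steatosis. The wild-type liver came from a male with unaltered Sart1 and is described as normal with mild steatosis. The remaining 3 arrays, labelled Het Liver, hold liver of the tumor-bearing mouse with cellular alteration and severe steatosis, and are used here only to ask whether a tumor change also separates the tumor from the liver around it. All mice were C57Bl6, 12 months old, untreated and on regular chow, and SART1+/- males are described as forming such tumors from 10 months. Each group is 3 pieces of the tissue of a single animal, and the carcinoma and the liver around it belong to the same mouse. Every p-value below therefore reflects only how far pieces of a single liver or carcinoma differ, and tumor, genotype, steatosis and animal cannot be told apart.

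Sart1 encodes a splicing factor that has also been studied as a regulator of the hypoxia-inducible factors. The adult hepatocyte is a metabolic and secretory cell that takes up bile acids and drugs from blood, modifies them with P450 enzymes and transferases, and exports plasma proteins. Hepatocellular carcinoma commonly loses part of that equipment and gains growth signalling, surface and cytoskeletal proteins of less mature or other epithelia. In bulk tissue, fewer cells of a type and less RNA per cell cannot be told apart.

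Expression was read on 1-colour Affymetrix 3' arrays with 45101 probe sets, as log2 values, where a difference of 1 is a 2-fold change. Probe sets with exactly 1 gene symbol covered 18194 genes, each represented by its brightest probe set over the 9 arrays, and 13888 genes that passed the 40th percentile on at least 3 arrays were tested. Array medians lay between 5.76 and 5.81, the 40th percentile averaged 5.22 and the 60th 6.44. Tumor arrays correlated with each other at r = 0.996 to 0.998 over probe sets and with wild-type arrays at 0.959 to 0.962. Array values carry no read depth, and the number of arrays limits the precision. The 3'-to-5' difference of the Actb control probe sets was 0.83 to 0.88 in wild-type pieces and 0.54 to 0.69 in tumor pieces, and that of Gapdh 0.26 to 0.29 and 0.20 to 0.23. Its part in the results was not tested.

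The tissue labels were checked against defining genes of each cell type. Over all tested genes 8.41% were called higher and 4.59% lower, by the rule given below. A count of 1 of 10 higher (10.0%) is near the first share. None of the 15 tested hepatocyte markers, among them albumin and apolipoproteins, was called in either direction, and their differences ran from -0.31 to 0.30. Their summed linear level was 236389 to 240421 in wild-type pieces and 232478 to 237716 in tumor pieces. These are among the brightest probe sets of the array, where a difference can be compressed, and the sum is set by the brightest of them. Of 8 bile duct markers 2 were called higher, the claudin Cldn7 (3.81) and the keratin Krt23 (2.41), and the summed level went from 609 to 655 up to 1693 to 1833. Macrophage markers summed to 8620 to 9440 in wild-type liver and 13991 to 16968 in tumor (3 of 11 higher, 1 lower). Stellate and fibroblast markers summed to 7255 to 9800 and 12824 to 18150 (6 of 11 higher, 1 lower), led by the collagens Col1a1 at 2.66 and Col3a1 at 2.47. Neutrophil markers summed to 569 to 611 and 1738 to 2108 (3 of 8 higher), lymphocyte markers to 1578 to 2930 and 3069 to 4426 (1 of 10 higher), and endothelial markers to 5987 to 6419 and 4989 to 6294 (1 of 10 higher). In adjacent liver bile duct markers summed to 2358 to 2894, above the tumor. Its macrophage sum was 11354 to 16486, its stellate and fibroblast sum 12396 to 15961 and its neutrophil sum 1425 to 1819, all above wild-type liver too. Hepatocyte (222655 to 226296), lymphocyte (1187 to 1285) and endothelial (4348 to 5626) sums of adjacent liver lay below wild-type liver.

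A gene was called when limma gave an adjusted p under 0.05 and a difference of at least 1 in size. Between tumor and wild-type liver 1806 genes were called, 13.0% of those tested. Of these 1168 (8.41%) were higher and 638 (4.59%) lower in tumor. These 2 shares are the background for the marker lists above and the gene groups below. The median over the 18194 genes, each at its brightest probe set, was 6.74 to 6.79 on wild-type arrays and 6.89 to 6.93 on tumor arrays. Setting these gene medians equal shifted the median difference of all genes by -0.15 and gave 959 higher and 834 lower, so the share of calls that were higher was 64.7% as deposited and 53.5% then. At a difference of 4 or more 48 genes were higher and 27 lower, and at 6 or more 8 and 8. All called genes had tumor and wild-type values that did not overlap, as 69.1% of all tested genes did. In the test of tumor against adjacent liver, which calls 2.1% of all genes higher and 2.94% lower in tumor, 196 (16.8%) of the genes higher than wild type were also higher than adjacent liver and 168 (26.3%) of those lower were also lower. Another 43 of the higher genes were lower than adjacent liver, and 11 of the lower genes were higher than it. Both tests use the same 3 tumor arrays, so their calls are not independent and the shared calls are a description.

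**Figure D1:**
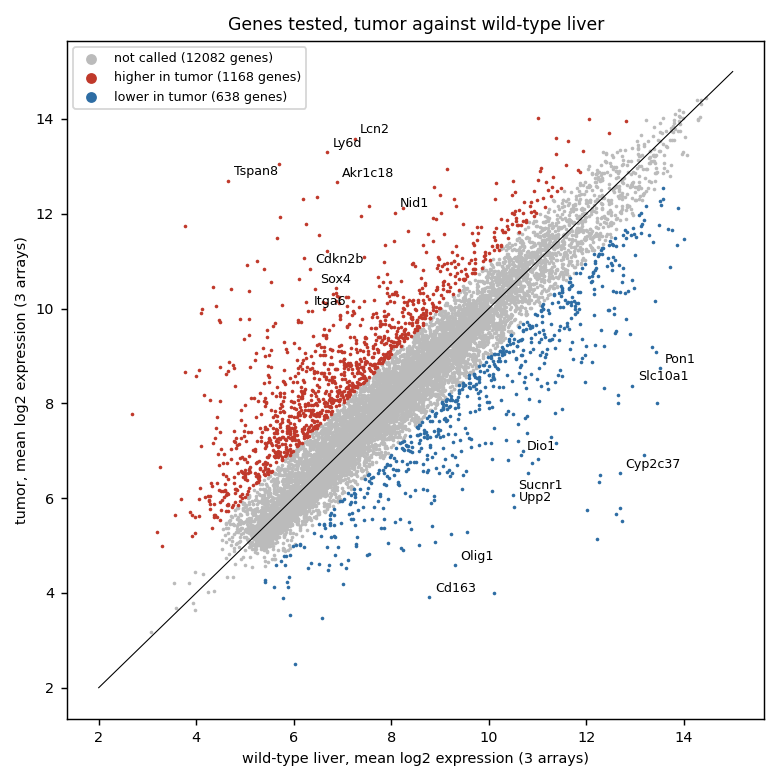
Mean log2 expression of each of the 13888 tested genes in wild-type liver (x axis) and tumor (y axis), 3 arrays each; the line marks equal levels. The 1168 genes called higher (red) and the 638 called lower (blue) reach farther from the line than the grey genes, with Ly6d and Lcn2 far above it and Cyp2c37 and Olig1 far below.

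To show the sequence beside some of the inflammatory genes described below, stretches of their promoters are printed. One spelling of the kappaB element that NF-kappaB proteins bind, GGG then any 2 bases then TTTCC, was searched on both strands of the 250 bases before each start in RefSeq promoters of assembly GRCm38.p6. It is 1 of 16 spellings searched in these promoters, 5 of kappaB and 11 of 8 other elements, and it was chosen for print after the results of the others were seen, since of all 16 it had the highest ratio of its share among genes called higher to that among genes not called. Its counts are a description and support nothing. A match is a description of the letters and not a binding site. It was found in 447 of 27025 promoters (1.65%), in 34 of 905 promoters of genes called higher (3.76%), 10 of 504 called lower (1.98%) and 146 of 9739 not called (1.5%). In the list of NF-kappaB regulators, which also holds induced genes such as Icam1, 4 of the 22 with a promoter held it (18.2%). The other kappaB spellings gave smaller contrasts between genes called higher and genes not called. Shares were 2.54% and 2.12% for GGGA, any base and TTCC, 2.54% and 1.27% for GGGA, any base, T, any base and TCC, 7.73% and 7.35% for GGG, any 2 bases and TTCC, and 8.4% and 5.39% for GGG, any 2 bases, TT, any base and CC. Among the other elements the AP-1 motif TGANTCA was in 8.51% and 5.74%, and in 8.53% of genes called lower. The ETS motif CCGGAAG was in 8.62% and 14.8%, the E-box CACGTG in 7.73% and 9.86%, the metal response core in 59.0% and 56.0% as TGCNCNC and 22.1% and 23.2% as TGCGCNC, and the cAMP response element in 1.77% and 2.91%. Antioxidant response elements were in 15.5% and 13.7% in one spelling and 15.9% and 14.7% in another, and the shorter HNF1 motif in 0.442% and 0.339%. The serum response element and the longer HNF1 motif were in 0 promoters of genes called higher. Each stretch below has 120 bases, 5' to 3' on the strand of its gene, with the match in capitals. In Ltb and Tnfaip3 the match lies on the opposite strand. Casp4 has 2 matches in the 250 bases searched, and the other lies outside the printed stretch. Cxcl3, an attractant of neutrophils, and Tnfaip3, an inhibitor of NF-kappaB, were chosen after their values were seen. Coordinates are chr17:37193772-37193891 (plus strand) for Ubd, chr5:90785973-90786092 (plus) for Cxcl3, chr9:5308701-5308820 (plus) for Casp4, chr17:35194365-35194484 (plus) for Ltb and chr10:19015411-19015530 (minus) for Tnfaip3.
Ubd: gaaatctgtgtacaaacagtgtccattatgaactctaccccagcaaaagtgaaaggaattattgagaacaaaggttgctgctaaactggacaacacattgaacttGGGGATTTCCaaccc
Cxcl3: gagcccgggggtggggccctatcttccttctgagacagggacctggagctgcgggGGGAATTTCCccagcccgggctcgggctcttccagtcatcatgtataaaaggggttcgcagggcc
Casp4: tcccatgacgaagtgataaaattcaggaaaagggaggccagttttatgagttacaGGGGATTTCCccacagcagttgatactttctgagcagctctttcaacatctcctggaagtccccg
Ltb: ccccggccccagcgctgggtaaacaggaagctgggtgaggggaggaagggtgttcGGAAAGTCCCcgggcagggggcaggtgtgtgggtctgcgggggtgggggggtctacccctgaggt
Tnfaip3: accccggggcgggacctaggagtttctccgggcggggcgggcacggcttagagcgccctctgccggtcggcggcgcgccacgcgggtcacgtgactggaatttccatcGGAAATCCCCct

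All 5 of these genes were called higher. They were picked by hand, and only a promoter with the match was printed. That all 5 hold the match and were called higher is therefore no result. Ubd, which encodes the ubiquitin-like modifier FAT10, stood at levels of 5.09, 4.55 and 4.54 in wild-type pieces and 10.93, 10.08 and 10.21 in tumor, a difference of 5.68 (SE 0.22, adjusted p = 6.47e-09). Ltb, the lymphotoxin beta chain that anchors a ligand of the tumor necrosis factor superfamily, was at 6.74, 6.44 and 6.70 against 10.04, 9.75 and 10.15, and Cxcl3 at 2.74, 2.72 and 2.59 against 8.25, 7.84 and 7.21. In each the 3 tumor values lay far above the wild-type ones. Casp4, the inflammatory caspase that senses bacterial lipopolysaccharide in the cytosol, differed by 3.84 (SE 0.11) and Tnfaip3 by 1.06 (SE 0.096). Tumor against adjacent liver gave -0.88 for Ubd, 0.84 for Ltb, 0.39 for Casp4, 4.79 for Cxcl3 and -0.63 for Tnfaip3.

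The differences best measured were those where both tissues lay clear of the dim end of the array. Of the genes called higher 668 (57.2%), and of those called lower 505 (79.2%), had the dimmer group above the 60th percentile. Wild-type levels lay below the 40th percentile for 163 of the genes called higher, and tumor levels did so for 51 of those called lower; there the size of a difference depends on background. On this measure Ly6d, a lymphocyte antigen 6 surface protein, had the largest increase, from 6.49, 6.87 and 6.71 in wild-type pieces to 13.26, 13.42 and 13.22 in tumor, a difference of 6.61 (SE 0.12, adjusted p = 5.8e-11). It was also higher in tumor than in adjacent liver, where it read 12.03, 11.63 and 11.99. Akr1c18, an aldo-keto reductase that inactivates progesterone, went from 7.18, 6.95 and 6.50 to 12.74, 12.65 and 12.62, with adjacent liver between at 10.32, 9.47 and 10.39. Tumor values of both genes lay above every value of the other tissues.

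Secreted proteins and transporters were among the rest of this set. Lcn2 rose by 6.33 and the trefoil factor Tff3, a peptide of mucous epithelia, by 5.88. Abcc4, an efflux pump of organic anions on the blood side of hepatocytes, read 6.63, 6.34 and 6.56 in wild-type pieces and 11.67, 11.66 and 11.32 in tumor, a difference of 5.04 (SE 0.13, adjusted p = 4.86e-10). Adjacent liver, at 11.39, 10.96 and 11.35, overlapped the tumor in that gene. The inter-alpha-trypsin inhibitor chain Itih5 differed by 4.63, the lipopolysaccharide co-receptor Cd14 by 4.59, the Golgi protein Golm1 by 4.53 and the milk fat globule protein Mfge8 by 3.89. Lpl, which hydrolyses the triglycerides of lipoproteins and is low in adult liver, went from 7.89, 7.99 and 7.76 to 11.24, 11.24 and 11.52. Adjacent liver stood higher still in Lpl, at 12.63, 12.64 and 12.51, and the tumor was below it, at -1.26 (SE 0.091, adjusted p = 1.93e-06). The zinc importer Slc39a4 rose by 3.80 and the sulfiredoxin Srxn1, an antioxidant enzyme, by 3.69. One wild-type piece stood apart in Slc39a4, whose wild-type values were 8.83, 8.80 and 9.83.

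Dbp, a transcription factor whose liver level swings with the time of day, rose from 7.39, 7.35 and 7.56 to 11.24, 11.09 and 10.92, and Nfil3, a repressor of the same sites, differed by -2.03 (SE 0.075). No source used here gives the time of collection, and its part was not tested. Clmp, a junctional adhesion molecule, differed by 3.53, the plasma platelet-activating factor hydrolase Pla2g7 by 3.45, the interferon-inducible Ifi27l2b by 3.58 and the protease inhibitor A2ml1 by 3.40. Dimmer probe sets of Clmp and Srxn1 gave differences of 0.76 and 0.72.

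The 20 largest decreases measured on both sides included enzymes and carriers of the hepatocyte. Cyp2c37, a P450 of fatty acid and drug oxidation, stood at 12.62, 12.61 and 12.84 in wild-type pieces and 6.57, 6.39 and 6.63 in tumor, a difference of -6.16 (SE 0.10, adjusted p = 3.42e-11). Its relative Cyp2c50 read 13.12, 13.14 and 13.29 and 6.38, 8.0 and 6.37, and 1 tumor piece was distinctly higher than the other 2. Cyp2c29 and Cyp2c23 differed by -4.15 and -4.03. Genes of the Cyp2c, Mup, Ces1, Nat8 and Ugt families are close copies that can share signal between probe sets, and their separate values are uncertain. Cyp8b1, which sets the ratio of cholic acid to other bile acids, differed by -5.81 and Cyp7b1, of the alternative bile acid pathway, by -4.46.

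Transcripts of bile acid and drug carriers were lower as well. Slc10a1, the sodium-dependent bile acid importer of the hepatocyte, went from 12.98, 12.96 and 12.89 to 8.21, 7.87 and 9.02, with adjacent liver at 10.0, 9.44 and 9.84, and was lower than adjacent liver, at -1.39 (SE 0.24, adjusted p = 0.00085). The organic anion carriers Slco1b2 and Slco2b1 differed by -4.64 and -3.63; a dimmer probe set of Slco2b1 gave 0.13. Pon1, the plasma paraoxonase, stood at 13.47, 13.52 and 13.51 against 9.45, 8.61 and 8.15, a difference of -4.77 (SE 0.30, adjusted p = 2.09e-07). Tumor pieces of Slc10a1 and Pon1 differed by over 1 among themselves and still lay well below every wild-type piece. Rgn, a gluconolactonase that falls with age in liver, differed by -4.33, the proline dehydrogenase Prodh by -4.21, the ethanolamine-phosphate lyase Etnppl by -3.96 and the deiodinase Dio1, which activates thyroid hormone, by -3.75. Leap2, a hepatic peptide that blocks the ghrelin receptor, differed by -3.70 and the mono-ADP-ribosylhydrolase Macrod1 by -3.58.

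**Figure D2:**
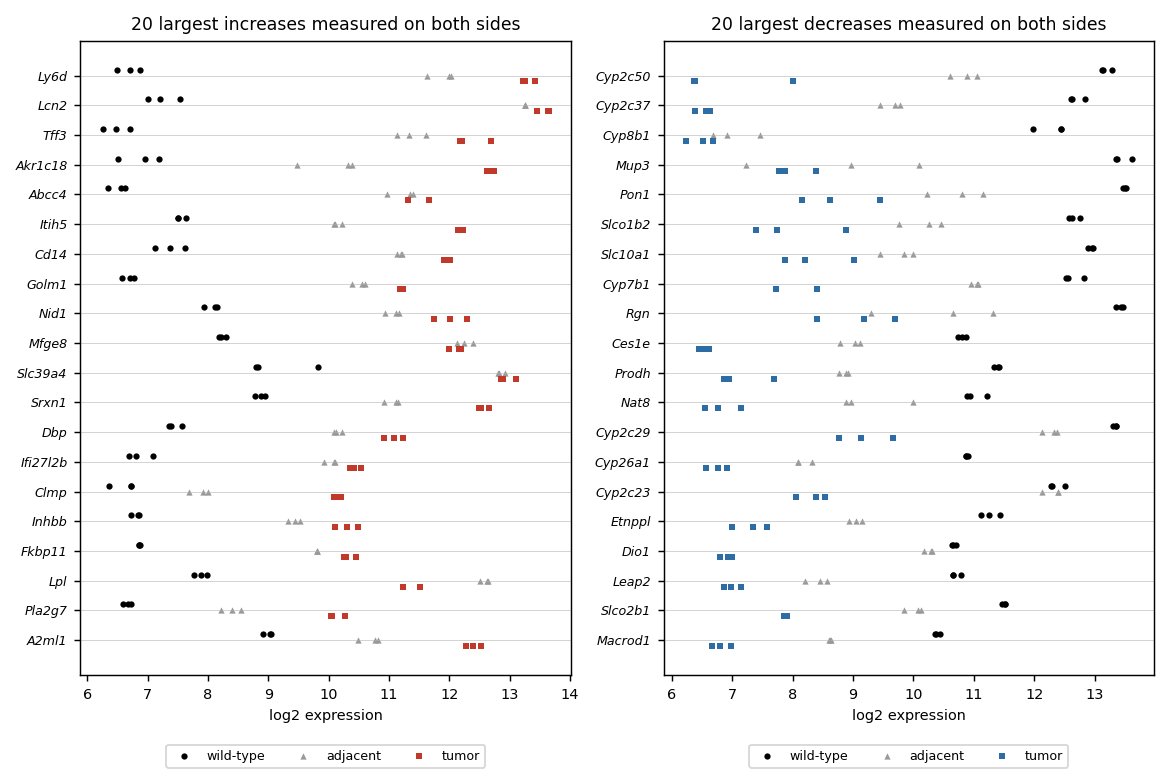
Log2 expression on every array (x axis) of the 20 largest increases (left) and 20 largest decreases (right) whose dimmer group lay above the 60th percentile; black circles are the 3 wild-type pieces, grey triangles adjacent liver and coloured squares tumor. Tumor and wild-type points do not overlap in any of these genes, and in Lpl the adjacent values lie above the tumor.

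Ranks 11 to 20 of all increases and decreases, without regard to the dim end, came next. Cdh17, a cadherin of the intestine, rose by 5.87 (SE 0.24) and was also above adjacent liver by 4.41 (SE 0.24, adjusted p = 2.85e-07). Spink1, a pancreatic trypsin inhibitor, rose by 5.83 and exceeded adjacent liver by 3.08. Csn3, kappa-casein of milk, differed by 5.44, Apela, an embryonic peptide that binds the apelin receptor, by 5.82, the cystine importer Slc7a11 by 5.30 and the desaturase Scd2 by 5.53. A second probe set of Apela gave 0.48. Tekt5, a tektin of sperm flagella, and Elapor1 differed by 5.65 and 5.76. Among decreases of the same ranks stood the haemoglobin scavenger receptor of macrophages Cd163 (-4.87), the transcription factor Olig1 (-4.73), the uridine phosphorylase Upp2 (-4.69) and the succinate receptor Sucnr1 (-4.41).

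Gene groups were then read by role, each against the background shares of 8.41% higher and 4.59% lower. Among 45 secreted hormones and growth factors 8 were higher and 7 lower. Inhbb, the beta B subunit of activins, read 6.86, 6.83 and 6.73 in wild-type pieces and 10.31, 10.11 and 10.49 in tumor, a difference of 3.50 (SE 0.095, adjusted p = 5.48e-10), while a second probe set gave 0.75. Fgf21, a hepatokine of fasting, rose by 2.36, Nrg4, a ligand of the ERBB4 receptor, by 1.83 and Angptl8, a regulator of lipoprotein lipase, by 1.48. On the falling side stood the fibroblast growth factor Fgf1 at -1.94, the activin-family subunit Inhbc at -1.73, Angptl4, an inhibitor of lipoprotein lipase, at -1.54, and the hepcidin gene Hamp2, of iron regulation, at -2.20 (second probe set -0.27). Hamp2 was higher in tumor than in adjacent liver, by 1.32, and Fgf1 was lower, at -1.69.

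Axon guidance ligands (1 higher and 1 lower of 32) and Wnt and Notch ligands with their secreted modulators (1 and 2 of 28) stayed near or below background. Within the latter, Wnt2, a Wnt ligand of liver endothelium, went from 7.49, 7.47 and 7.70 to 4.67, 4.71 and 5.08, and Rspo3, which amplifies Wnt signals, differed by -1.59. Dlk1, a fetal liver protein related to Notch ligands, rose by 1.34, and by 0.67 without tumor piece 1. In the tumor necrosis factor superfamily 4 of 30 members were higher and 0 lower. They were Ltb, the TWEAK receptor Tnfrsf12a (3.06), the death receptor Tnfrsf21 (1.91) and Tnfrsf18 (1.11). Only Tnfrsf21 of these 4 also passed against adjacent liver, by 1.74 (SE 0.135, adjusted p = 3.08e-06).

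Receptors were read next. Of 40 interleukin and cytokine receptor chains 12 were higher and 3 lower, with a median difference of 0.38 against -0.01 over all genes. The higher count was 7 when a gene's probe sets were averaged. Lepr, the leptin receptor, stood at 6.51, 6.67 and 6.62 and 9.39, 8.78 and 8.91, a difference of 2.43 (SE 0.135, adjusted p = 9.03e-08), and was above adjacent liver by 1.93; a second probe set of it gave -0.10. Csf2rb, the shared signalling chain of the interleukin-3, interleukin-5 and granulocyte-macrophage receptors, rose by 2.0 and its partner Csf2ra by 1.37. Il10rb and Il4ra rose by 1.75 and 1.14. Second probe sets gave 0.18 for Csf2ra and -0.18 for Il4ra. The 3 that fell are chains the hepatocyte itself uses, the growth hormone receptor Ghr (-1.46), the interleukin-6 receptor Il6ra (-1.59) and the interleukin-1 receptor accessory protein Il1rap (-2.52). The macrophage marker sum given above moved the same way as Csf2rb and Csf2ra, and its part was not tested.

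Of 42 receptor tyrosine kinases 6 were higher and 0 lower. Ddr1, a collagen receptor of epithelia, read 6.93, 6.97 and 6.83 in wild-type liver and 9.22, 9.18 and 8.94 in tumor; 2 dimmer probe sets gave -0.13 and -0.16. Fgfr1 rose by 1.72 (second probe set 0.25), the lymphatic growth factor receptor Flt4 by 1.83, the ephrin receptor Epha3 by 1.63 and Axl, a receptor for Gas6, by 1.22. Over 112 G protein-coupled receptors the counts were 10 higher and 7 lower, close to background, and 6 higher with probe sets averaged. The sphingosine-1-phosphate receptors went opposite ways, S1pr3 at 2.11 and S1pr1 at -1.80. Receptors of 2 blood pressure hormones fell, the angiotensin receptor Agtr1a at -1.08 and the adrenergic receptor Adra1b at -1.40, while the endothelin receptor Ednrb was at 1.20.

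Innate sensors were called higher in 8 of 32 and lower in 3. Adjacent liver exceeded wild-type liver in 11 of the 32, where 8.29% of all genes did so. The macrophage marker sum, 8620 to 9440 in wild-type pieces and 13991 to 16968 in tumor, was also higher, and its part was not tested. Tlr1, which pairs with Tlr2 to sense bacterial lipopeptides, stood at 4.02, 3.89 and 4.26 against 8.74, 8.56 and 8.80, a difference of 4.64 (SE 0.11, adjusted p = 2.71e-10), and was above adjacent liver by 1.40. Clec7a, a receptor for fungal glucans, rose by 2.73 and the inflammasome caspase Casp1 by 2.70. Flagellin receptor Tlr5 (-1.16) and the sensors Nlrp6 (-1.34) and Nlrp12 (-1.58) were lower. Nlrp12 in adjacent liver lay below the tumor by 2.46.

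Downstream of the receptors, the list of MAP kinase feedback targets had the highest share called higher of any list with 15 or more tested members. It holds inhibitors of the pathway from the Dusp, Spry and Spred families and also other genes that ERK signalling induces, such as the cyclin Ccnd1. Of the 18 genes 9 were higher and 0 lower, with a median of 1.08. In tumor against adjacent liver 5 were higher and 0 lower, and the median was 0.80. With probe sets averaged per gene, 5 were called higher than wild-type liver. Dusp6, a phosphatase that inactivates ERK in the cytoplasm, read 9.76, 9.64 and 9.87 in wild-type pieces and 11.86, 11.72 and 11.56 in tumor, a difference of 1.96 (SE 0.10, adjusted p = 5.81e-08). Adjacent liver stayed at 10.24, 10.02 and 10.33, and the tumor exceeded it by 1.51 (SE 0.10, adjusted p = 1.24e-06). Every tumor value of Dusp6 lay above all values of the other tissues.

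The related phosphatases Dusp4 and Dusp5 behaved in part alike. Dusp4 went from 5.50, 5.29 and 5.73 to 8.26, 8.51 and 8.60 with adjacent liver at 7.65, 7.45 and 7.65, and Dusp5 rose by 2.14; neither passed the difference of 1 against adjacent liver. The RAS pathway inhibitors Spred1 and Spry2 rose by 1.59 (SE 0.06) and 1.5 (SE 0.056). A second probe set of Spry2 gave -0.21, and those of Spred1 ran from -0.34 to 0.98. Ccnd1, the cyclin that carries growth signals into the cell cycle, rose by 2.29 (SE 0.098, adjusted p = 1.24e-08), but tumor and adjacent liver differed there by -0.28. Of the 22 dual specificity phosphatases as a whole 3 were higher, the same 3 Dusp genes.

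Immediate early genes, transcribed within minutes of stimulation, were higher in 9 of 29 and lower in 0. Ier3 stood at 5.36, 5.26 and 5.75 and 9.45, 9.55 and 9.18, a difference of 3.94 (SE 0.13, adjusted p = 2.36e-09), and Maff, a small MAF factor, at 6.66, 6.60 and 6.52 and 9.50, 9.44 and 9.37. Btg2, a brake on proliferation, rose by 2.28, Ier5 by 1.95 and Myc by 1.76. Maff and Btg2 also exceeded adjacent liver, by 1.28 and 1.63, whereas Ier3 and Myc differed from it by -0.17 and 0.17. No source used here describes how long the pieces were handled.

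Among 37 genes of insulin and mTOR signalling the counts of 3 higher and 2 lower were near background. Trib3, a stress-induced pseudokinase, rose by 3.12 and passed against adjacent liver by 1.99; Socs3, a brake on cytokine receptors, rose by 1.89 and the receptor adaptor Grb10 by 1.60 (second probe set 0.24). The lower genes were the receptor adaptor Grb14 (-1.16) and Pdk1 (-1.28). By its symbol Pdk1 is a kinase of pyruvate dehydrogenase and not a member of insulin or mTOR signalling, so only Grb14 of these 2 belongs to the pathway. Targets of YAP and TEAD were higher in 5 of 22 (3 with probe sets averaged) and lower in 0, with Ajuba, a scaffold of the Hippo pathway, at 2.53, Tgfb2 at 2.38 and Birc5 at 2.91.

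Cell death regulators were higher in 9 of 37 and lower in 1, and the calls covered both killers and protectors. Casp12, a caspase of the endoplasmic reticulum, read 5.27, 5.21 and 4.81 and 10.01, 9.76 and 9.57, and Mlkl, which executes necroptosis, rose by 1.84. The BH3-only killers Bcl2l11 and Pmaip1 rose by 1.80 and 1.60, and so did Birc5, the survival protein survivin. Cidea, a lipid droplet protein, was the lower one at -2.73. Of 33 genes recurrently altered in liver cancer 4 were higher and 0 lower. Cdkn2b, the CDK inhibitor p15, stood at 6.53, 6.27 and 6.19 in wild-type pieces, 7.60, 7.89 and 7.77 in adjacent ones and 10.88, 10.83 and 10.80 in the carcinoma. Tumor exceeded wild-type liver there by 4.51 (SE 0.098, adjusted p = 1.29e-10) and adjacent liver by 3.09 (SE 0.098, adjusted p = 1.5e-08). The CDK inhibitor Cdkn1a rose by 1.37.

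**Figure D3:**
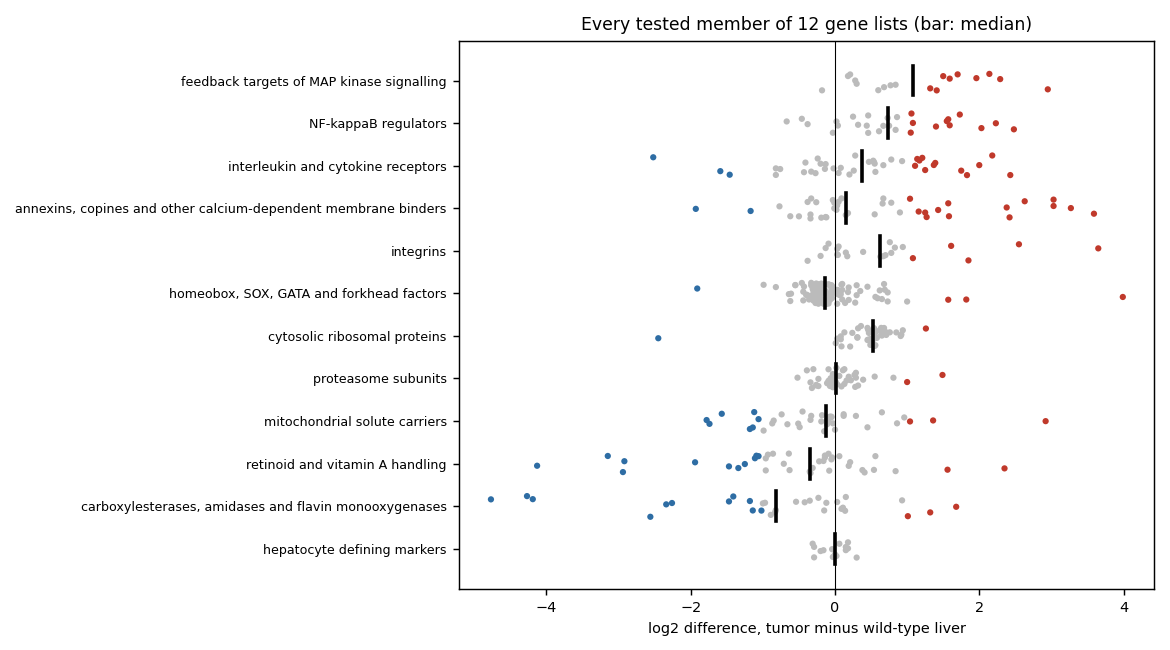
Log2 difference, tumor minus wild-type liver (x axis), of every tested member of 12 gene lists; red points were called higher, blue lower, grey neither, and the bar is the list's median. The median is 1.08 for feedback targets of MAP kinase signalling and 0.00 for hepatocyte defining markers. The carboxylesterase list, which also holds other enzymes, reaches -4.77 in the paraoxonase Pon1.

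In the nucleus, transcription factors of the homeobox, SOX, GATA and forkhead families were quiet, with 3 of 108 higher and 1 lower. Sox4, a factor of progenitor cells, was the exception in size, from 6.56, 6.87 and 5.87 to 10.48, 10.39 and 10.39, a difference of 3.99 (SE 0.195, adjusted p = 3.59e-08); 2 dimmer probe sets gave -0.08 and -0.15. Irx3 rose by 1.82 and Tbx3, a T-box factor that follows Wnt signals in liver, was at -1.91 (other probe sets -0.24 and -0.71). KLF, ETS, bHLH and bZIP factors had 18 of 130 higher and 8 lower (5 lower with probe sets averaged). Bach1, a repressor of haem and antioxidant genes, rose by 2.06 and Id1, an inhibitor of bHLH factors, by 1.95. Both exceeded adjacent liver, by 1.65 and 1.81. Klf15 and Klf9, which answer to glucocorticoids, were at -1.89 and -1.40.

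Cell division genes formed one of the larger groups. Of 42 genes of kinetochore, spindle and centrosome 18 were higher and 1 lower, with a median of 0.87; the higher count was 7 with probe sets averaged and 9 with a filter at the 60th percentile. Cenpa, the centromeric histone, read 6.19, 6.13 and 6.16 against 8.38, 8.08 and 8.15, and Racgap1, of the division furrow, differed by 2.0. The single lower gene was Spc24, a kinetochore protein, at -1.81. Adjacent liver exceeded wild-type liver in 24 of the 42, where 8.29% of all genes did so, and the median of tumor minus adjacent liver was -0.19. DNA repair genes (4 of 65 higher, 0 lower), histone and DNA modifying enzymes (3 and 2 of 67) and 9 canonical histones (0 and 0) stayed below background. Brca1 rose by 1.48, though a second probe set of it was not called, and the translesion polymerase Polk by 1.25. The deacetylases Sirt3 and Hdac11 were at -1.16 and -1.29.

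The machinery of RNA and protein synthesis was seldom called. Cytosolic ribosomal proteins had 1 higher and 1 lower of 47 yet a median of 0.52, mitochondrial ones 1 higher and 0 lower of 76 with a median of -0.11, and translation factors 2 and 0 of 57. Ribosome biogenesis (1 and 0 of 42) and splicing regulators (1 and 0 of 75) were similar. Of 34 tRNA synthetases 1 was higher and 3 (8.82%) were lower. Aars, the alanyl-tRNA synthetase, was at -1.61 and was below adjacent liver, at -1.18. Noncoding transcripts were higher in 4 of 20, among them the maternally expressed neighbours Rian (2.99) and Meg3 (2.19), which were both lower than in adjacent liver, at -1.10 and -1.36. Other probe sets of Meg3 ran from 0.05 to 0.36. Sart1, the gene altered in the tumor-bearing mouse, read 8.35, 8.32 and 8.36 in wild-type pieces, 8.34, 8.39 and 8.38 in adjacent ones and 7.77, 7.71 and 7.75 in the carcinoma.

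Protein degradation was also seldom called, with 2 of 41 proteasome subunits higher, 0 of 19 proton ATPase subunits called, and 0 of 41 autophagy genes higher and 2 (4.88%) lower. The 2 proteasome genes, Psmb8 (1.49) and Psmb9 (1.0), encode the immunoproteasome subunits induced by interferon. Heat shock proteins and chaperonins (2 and 3 of 87) were below background. Endoplasmic reticulum folding and export genes were higher in 6 of 64, close to background, but all 6 calls of tumor against adjacent liver in that list were increases. Kdelr3, which returns escaped chaperones to the reticulum, stood at 5.63, 5.48 and 5.51 in wild-type pieces, 6.28, 6.40 and 6.28 in adjacent ones and 8.42, 9.11 and 8.73 in the carcinoma, and exceeded adjacent liver by 2.43 (SE 0.14, adjusted p = 4.29e-07). Creld2, Derl3 and Pdia6, of protein folding and disposal, rose by 1.51, 1.41 and 1.09, with a second probe set of Pdia6 at 0.15. Fkbp11, a folding enzyme of secretory cells, went from 6.86, 6.85 and 6.87 to 10.25, 10.45 and 10.29, with a second probe set at 0.19.

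Proteases and their inhibitors moved both ways. Of 35 serine proteases and epithelial inhibitors 10 were higher and 2 lower. St14, the membrane protease matriptase, rose by 2.09 (SE 0.085) and exceeded adjacent liver by 2.26; Slpi, an inhibitor of elastase, rose by 3.30 and the urokinase receptor Plaur by 1.32. Tmprss2 was at 1.36 against wild-type liver and -1.51 against adjacent liver. Masp1, a complement protease made by the liver, was at -1.48, while 3 other probe sets gave 0.24 to 0.46. Serpins had 5 higher and 2 lower of 25. Serpinb6b rose by 4.36 and the adipokine Serpina12 by 1.85, and Serpinb1a, an inhibitor of neutrophil elastase, went from 7.68, 7.73 and 8.18 to 5.40, 5.17 and 5.55. Of 46 lysosomal genes 7 were higher, including legumain, Lgmn (2.32), and Hexa (1.51), and 1 was lower, Ctse (-2.26; second probe set -0.28).

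**Figure D4:**
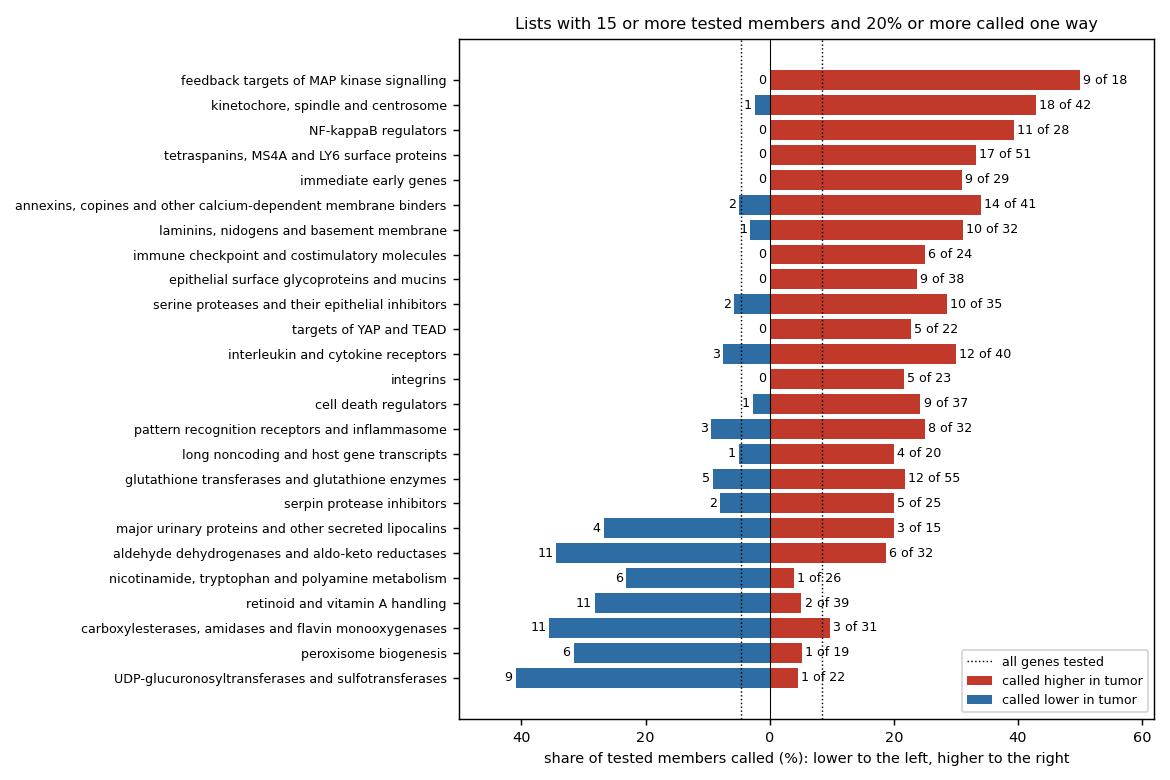
Share of tested members called higher (right, red) and lower (left, blue) in tumor against wild-type liver, for lists with 15 or more tested members and 20% or more called one way; the dotted lines mark all tested genes, 8.41% and 4.59%, and counts stand beside the bars. Feedback targets of MAP kinase signalling reach 9 of 18 higher, and UDP-glucuronosyltransferases and sulfotransferases 40.9% lower.

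The highest shares of decreases among lists of 15 or more tested members belonged to hepatocyte chemistry. Of 22 UDP-glucuronosyltransferases and sulfotransferases, which make drugs, bilirubin and steroids soluble, 9 (40.9%) were lower and 1 higher. Papss2, which makes the sulfate donor, stood at 11.78, 11.84 and 11.78 and 9.99, 9.78 and 9.99, a difference of -1.88 (SE 0.077, adjusted p = 9.39e-09), and adjacent liver was at 11.63, 11.83 and 11.76. Sult1b1, Sult1d1 and Ugt2a3 were at -2.17, -1.67 and -2.79. Against adjacent liver 10 of the 22 were lower and 0 higher. Sult2a2 was the exception, at 1.43 against wild-type liver, or 0.72 without tumor piece 3, and -2.74 against adjacent liver.

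The list of carboxylesterases, amidases and flavin monooxygenases also holds paraoxonases, acetyltransferases and the Aox and Mao oxidases. Of its 31 tested members 11 (35.5%) were lower and 3 higher, with a median of -0.82. By symbol 5 of the 12 Ces genes were lower and 2 higher. Ces1e read 10.81, 10.87 and 10.74 against 6.54, 6.62 and 6.45, Ces1d was at -2.56 and Ces2a at -2.34, while Ces2b rose by 1.68. Nat8, an acetyltransferase of cysteine conjugates, went from 10.93, 10.88 and 11.22 to 6.54, 7.15 and 6.77. Both Ces1e and Nat8 also lay below adjacent liver, at -2.44 and -2.46. Aadac, a deacetylase that hydrolyses drugs and esters, was at -1.41 and Maob, which oxidises amines, at -1.18.

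Aldehyde dehydrogenases and aldo-keto reductases divided, with 6 of 32 higher and 11 lower. The higher ones included Aldh18a1, the first enzyme of proline synthesis, at 3.07 (2 other probe sets 0.60 and 0.31), Akr1b8 at 2.30 and Aldh1b1 at 1.85. Aldh18a1 and Prodh, which make and break down proline, thus moved opposite ways. Among the lower ones were the mitochondrial Aldh5a1 (-1.33), the folate enzyme Aldh1l1 (-1.25) and the lysine pathway enzyme Aldh7a1 (-1.22).

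Of 39 genes of vitamin A handling 11 (28.2%) were lower, at several steps, and 2 higher. Cyp26a1, which degrades retinoic acid and is itself induced by it, read 10.91, 10.87 and 10.87 in wild-type pieces, 8.09, 8.09 and 8.32 in adjacent ones and 6.91, 6.77 and 6.57 in the carcinoma. The 3 tissues did not overlap, and tumor differed from wild type by -4.13 (SE 0.093, adjusted p = 1.5e-10) and from adjacent liver by -1.42. Its relative Cyp26b1 was at -2.92, the retinol saturase Retsat at -3.15, the retinol oxidising Adh4 at -2.94 and the carotenoid cleaving Bco2 at -1.94. Lrat, the retinyl ester enzyme of stellate cells, was at -1.11. The sister enzyme Bco1, which makes retinal from carotene, rose by 2.35 and Rdh9 by 1.56.

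Glutathione and redox enzymes had 12 of 55 higher and 5 lower (8 lower with gene medians set equal). Nqo1, a quinone reductase induced by the factor NRF2, stood at 5.95, 6.17 and 6.16 and 8.93, 9.48 and 9.07, a difference of 3.06 (SE 0.13, adjusted p = 1.06e-08). The glutathione synthesis enzymes Gclc and Gss rose by 1.24 and 1.69. Gstk1, a mitochondrial and peroxisomal transferase, went the other way, from 11.92, 11.86 and 11.89 to 8.94, 8.91 and 8.77, and Gstz1 was at -1.12. For Nqo1 tumor and adjacent liver differed by 0.25.

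Organelle genes fell in part. Of 40 mitochondrial solute carriers 7 were lower (4 with probe sets averaged) and 3 higher. The ornithine carrier of the urea cycle Slc25a15 was at -1.74 and the coenzyme A carrier Slc25a42 at -1.78, with a second probe set of the latter at -0.02, while Slc25a24 rose by 2.92. Slc25a4, an adenine nucleotide carrier, read 7.40, 7.48 and 7.21 in wild-type pieces, 11.47, 11.44 and 11.47 in adjacent ones and 8.26, 8.40 and 8.53 in the carcinoma, and so was lower in tumor than in adjacent liver, at -3.07 (SE 0.086, adjusted p = 6.1e-09). Tricarboxylic acid cycle and pyruvate entry genes had 4 of 32 lower and 1 higher, with a median of -0.53. Their called members were regulators of pyruvate dehydrogenase (Pdp1, Pdp2, Pdk1 and Pdk4) and its subunit Dlat, at 1.20, -1.54, -1.28, -1.04 and -1.24. A list of peroxisome genes, with Pex biogenesis factors, Pxmp membrane proteins and Abcd transporters, had 6 of 19 lower and 1 higher. Of its 14 Pex genes 3 were lower and 0 higher. Among the lower genes of the list were the import receptor Pex5 (-1.28) and the fatty acid transporter Abcd3 (-1.36). The related transporter Abcd2 rose by 3.32, with a second probe set at 0.47.

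Cofactor and nucleotide genes were called in both directions. Of 26 genes of nicotinamide, tryptophan and polyamine metabolism 6 were lower and 1 higher. The tryptophan breakdown enzymes Afmid, Kynu and Haao were at -2.76, -1.99 and -1.42, with a second Kynu probe set at -0.17, and Nnmt, which methylates nicotinamide, went from 11.31, 11.21 and 11.55 to 8.54, 8.68 and 8.17. Smox, spermine oxidase, rose by 2.68 and exceeded adjacent liver by 1.59. Purine and pyrimidine genes had 4 higher and 4 lower of 49 (8.16% each), beside 8.41% and 4.59% over all genes. The 4 higher were the cytidine deaminase Cda (2.22), the CTP synthases Ctps2 (1.88) and Ctps (1.70) and the deoxycytidine kinase Dck (1.40). The pyrimidine degrading Dpyd, Dpys and Upp2 were at -2.48, -1.71 and -4.69. Second probe sets gave 0.05 for Ctps2 and 0.29 for Dck. The fourth lower gene was thymidine kinase Tk1 at -1.05. In the pentose phosphate pathway 1 of 16 was higher, Pgd (1.92), and 1 lower, the malic enzyme Me1 (-1.08).

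Membrane lipid genes moved both ways. Phospholipid synthesis had 5 of 38 higher (3 with gene medians set equal) and 5 lower. Pemt, which makes phosphatidylcholine by methylation in liver, stood at 11.70, 11.65 and 11.59 and 9.68, 9.53 and 9.50, below adjacent liver at -1.22, and Chpt1, of the alternative choline route, was at -1.98. Of the lipins, which make diacylglycerol, Lpin3 rose by 2.31 and Lpin1 was at -2.17. Sphingolipid genes had 8 of 41 higher and 1 lower, including Sptlc2, of the enzyme that starts sphingolipid synthesis (2.30; other probe sets 0.89 and 0.31), the ceramide synthase Cers6 (2.25), ceramide kinase Cerk (1.63) and the sphingomyelinase relative Smpdl3b (2.50). Eicosanoid genes had 8 of 55 higher and 2 lower. The prostaglandin reductase Ptgr1 rose by 3.62 and the arachidonate releasing Pla2g4a by 1.41, and Hpgd, which breaks down prostaglandins, was at -2.12.

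Of 64 glycosyltransferases of sugar chain synthesis 11 were higher and 1 lower. Galnt6, which starts mucin-type chains, read 6.14, 6.25 and 6.28 in wild-type pieces, 6.98, 6.98 and 6.87 in adjacent ones and 11.30, 11.20 and 10.70 in the carcinoma. It exceeded wild-type liver by 4.85 (SE 0.13, adjusted p = 5.19e-10) and adjacent liver by 4.12 (SE 0.13, adjusted p = 1.5e-08). Mgat5, which adds branches to N-linked chains, rose by 1.87, B4galt6 by 3.56 and the sialyltransferase St6gal1 by 1.32. Among 50 genes of heparan sulfate, chondroitin and hyaluronan 4 were higher, including the hyaluronan receptor Cd44 (2.07). Metal genes had 4 of 38 higher and 2 lower. The metallothioneins Mt1 and Mt2, which bind zinc and copper, rose by 2.85 and 2.68, with a second Mt1 probe set at -0.02, and the manganese exporter Slc30a10 was at -1.56. In a list of urinary proteins and other lipocalins 3 of 15 were higher, among them the acute-phase Orm2 (2.10), and 4 lower.

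Ion channels had 16 of 141 higher and 4 lower. Trpm4, a calcium-activated sodium channel, stood at 6.12, 6.28 and 5.84 and 8.82, 8.58 and 8.49 and exceeded adjacent liver by 2.38, and the calcium release channel Itpr3 rose by 2.04. Epithelial sodium channel subunit Scnn1a was at -2.44 and the potassium channel Kcnn2 at -1.88. Aquaporins, pumps and exchangers (3 higher and 6 lower of 58) included the aquaporins Aqp7 (1.54) and Aqp8 (-1.11). Carriers of nucleosides, monocarboxylates, sugars and vitamins had 12 higher and 9 lower of 94. The phosphate importer Slc20a1 rose by 2.80 and the glucose-6-phosphate carrier of the reticulum Slc37a4 was at -1.21. Slc2a2, the glucose transporter of hepatocytes, was chosen after its values were seen, at 12.17, 12.23 and 12.14 in wild-type pieces, 11.98, 11.68 and 11.87 in adjacent ones and 8.76, 9.10 and 9.86 in the carcinoma.

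Surface proteins followed. Of 51 tetraspanins, MS4A and LY6 proteins 17 (33.3%) were higher and 0 lower, with a median of 0.16. Cd9, a tetraspanin of adhesion and membrane fusion, stood at 8.95, 8.96 and 9.14 and 12.04, 12.05 and 11.93, a difference of 2.99 (SE 0.067, adjusted p = 1.51e-10). Tspan17 rose by 2.69 and Ly6e by 1.38. The MS4A genes, which are mostly expressed in myeloid and lymphoid cells, made up 5 of the 17, and the macrophage and lymphocyte sums above moved with them; their part was not tested. Annexins, copines and other proteins that bind membranes with calcium had 14 of 41 higher and 2 lower. By symbol alone 7 of the 9 annexins were higher, the largest share (77.8%) of any of the 242 symbol stems. Anxa2 rose by 3.03 (SE 0.095, adjusted p = 1.54e-09), with a second probe set at 0.82, Anxa4 by 1.25 and Cpne8 by 2.42. S100a1 was lower, at -1.93, while S100a4, of motile cells, was higher at 2.38.

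Junction genes moved both ways. Tight junction genes had 5 of 29 higher (3 with probe sets averaged) and 3 lower. Cldn7, a claudin of ducts, rose from 5.51, 5.30 and 5.26 to 9.13, 9.02 and 9.34 but was below adjacent liver, at -1.5. Cldn2, of hepatocytes and leaky epithelia, was at -1.21. Of 46 cadherin, catenin and desmosome genes 6 were higher and 2 lower. Cdh1, E-cadherin, stood at 6.98, 6.96 and 7.72 and 10.08, 10.16 and 10.20, a difference of 2.93 (SE 0.17, adjusted p = 1.19e-07), and Cdh2, N-cadherin, was at -1.02. The microvillus cadherin Cdhr2 rose by 2.61 and was above adjacent liver by 2.65.

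Integrins were higher in 5 of 23 and lower in 0, with a median of 0.63. Itga6, a receptor for laminin, read 6.16, 6.42 and 6.34 in wild-type liver and 10.0, 9.94 and 9.92 in tumor, and Itga3, another laminin receptor, rose by 2.55 (SE 0.083) and exceeded adjacent liver by 2.04. Itgax, Itgb2 and Itga4, which leukocytes carry, rose by 1.85, 1.61 and 1.08. Basement membrane genes had 10 of 32 higher and 1 lower, and 5 higher with gene medians set equal. Nid1, which links laminin to collagen IV, stood at 8.15, 8.12 and 7.94 and 12.01, 12.30 and 11.74, a difference of 3.95 (SE 0.13, adjusted p = 1.76e-09). The collagen IV chains Col4a1 and Col4a2 rose by 1.24 and 1.47. In tumor against adjacent liver 9 of the 32 were lower and 3 higher. The stellate and fibroblast sum above was also higher in tumor, and its part in the collagen values was not tested.

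Mucosal glycoproteins were higher in 9 of 38 and lower in 0. Prom1, a protein of membrane protrusions and progenitor cells, stood at 5.85, 5.79 and 5.62 and 10.06, 9.89 and 10.26, and Cd24a, a mucin-like surface protein, rose by 3.90 (SE 0.21). The gap junction relative Panx1, a channel that releases ATP, was the one higher gene of 10 connexins and pannexins, at 2.30. Keratins and other intermediate filaments had 7 of 36 higher and 0 lower. Krt8 and Krt18, the keratin pair of hepatocytes, rose by 1.46 and 1.88 and vimentin, Vim, by 1.68. Krt5, of basal epithelia, rose by 2.74 and was above adjacent liver by 2.52.

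Of 84 microtubule genes 10 (11.9%) were higher and 0 lower, with a median of 0.10. Kif5c, a kinesin best known from neurons, stood at 4.56, 4.72 and 4.68 and 8.56, 8.30 and 9.18, and the tubulins Tubb6 and Tubb5 rose by 2.81 and 1.63; second probe sets gave -0.42 for Tubb6, 0.45 for Tubb5 and 0.77 for Kif5c. Actin filament genes had 17 of 102 higher and 3 lower with a median of 0.31, the higher ones including Tagln2 (2.53), the tropomyosin Tpm1 (2.26) and the crosslinker Actn1 (1.73). Another tropomyosin, Tpm2, was at -1.51. In tumor against adjacent liver 1 of the 102 was higher and 8 lower.

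Immune regulators closed the survey. The list of NF-kappaB regulators holds activators and inhibitors, and also induced genes such as Icam1. Its members were higher in 11 of 28 (39.3%) and lower in 0, with a median of 0.74. Icam1, an adhesion molecule that NF-kappaB induces, stood at 6.52, 6.43 and 6.69 in wild-type pieces, 8.94, 8.96 and 9.05 in adjacent ones and 9.16, 8.94 and 8.97 in the carcinoma. Tumor exceeded wild-type liver in Icam1 by 2.48 (SE 0.083, adjusted p = 2.36e-09), whereas adjacent liver and tumor lay 0.04 apart. Card10 and Malt1, scaffolds of NF-kappaB activation, rose by 2.23 and 1.40 (other probe sets of Malt1 0.15 and 0.50), the NF-kappaB subunit Relb by 1.55 and Tnfaip2 by 1.73. Checkpoint and costimulatory molecules had 6 of 24 higher and 0 lower, but 2 higher with gene medians set equal. Arg2, a mitochondrial arginase that consumes arginine, read 4.79, 4.67 and 4.90, 4.90, 4.69 and 5.09 and 8.89, 8.49 and 7.72 in wild-type liver, adjacent liver and tumor, a difference of 3.58 (SE 0.24, adjusted p = 3.19e-07) from wild type. Tumor was above both other tissues in Arg2. Cd47, the signal that restrains phagocytes, and its receptor Sirpa rose by 1.04 and 2.08, and other probe sets of Cd47 gave 0.10 to 0.62. Fc, lectin and scavenger receptors had 10 of 74 higher and 3 lower, with Clec4a3 at 1.97, Fcer1g at 1.26 and Timd4, of resident macrophages, at -1.04. The higher macrophage marker sum given above stands beside these receptors too, and its part was not tested.

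Differences were also laid out by chromosome, as the median over tested genes less the median over all genes. Genes of chromosome 15 stood higher in tumor, by 0.32, 0.29 and 0.21 in the 3 pieces (572 genes), and 15.9% of them were called higher, beside 8.41% of all genes. Genes of chromosome 8 stood lower, at -0.23, -0.19 and -0.16 (734 genes), and 8.45% were called lower, beside 4.59% of all genes. Chromosomes 6, 3 and 14 had similar shares called lower, 8.19%, 7.7% and 7.38%. Neighbouring genes were taken in blocks of 50, a size chosen after values were seen. All 12 blocks of chromosome 15 lay above 0 in the tumor, from 0.14 to 0.57, and all 15 of chromosome 8 below it, from -0.30 to -0.10. Other chromosomes were nearly as uniform, with 13 of 14 blocks above 0 on chromosome 17. All 10 blocks of chromosome 19 and 14 of 15 of chromosome 6 lay below 0. Wild-type pieces lay within 0.01 of 0 on every chromosome. Each value is a difference from the mean of these same pieces, which centres them on 0, so they are no control for the tumor values.

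Adjacent liver also stood above 0 on chromosome 15, though chromosome 15 was not its highest, and it did not stand below 0 on chromosome 8. Its pieces stood at 0.21, 0.24 and 0.23 on chromosome 15 and at 0.06, 0.04 and 0.09 on chromosome 8. They were at 0.26, 0.27 and 0.32 on chromosome 1 and at 0.24, 0.29 and 0.29 on chromosome 18. Chromosome 17 was close to chromosome 15, at 0.20, 0.24 and 0.24. Apart from these and chromosome 19, the rest stood lower than chromosome 15. On chromosome 19, which carries Sart1, tumor pieces were at -0.12, -0.12 and -0.04 and adjacent pieces at 0.29, 0.22 and 0.30, and blocks of the 2 tissues lay on opposite sides of 0 in 10 of 10. On chromosome 10 tumor pieces were at 0.09, 0.06 and 0.11 and adjacent pieces at -0.18, -0.19 and -0.19. These are medians over genes of 1 animal per group, with no test.

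**Figure D5:**
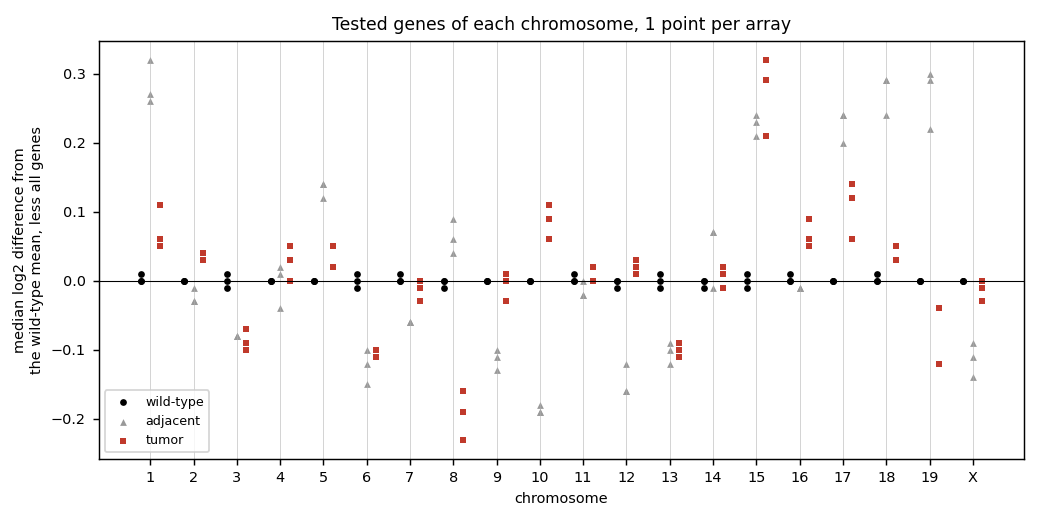
Median over the tested genes of each chromosome (x axis) of the log2 difference from the wild-type mean, less the same median over all genes (y axis), 1 point per array. Tumor pieces (red squares) stand highest on chromosome 15, at 0.21 to 0.32, and lowest on chromosome 8, at -0.23 to -0.16. Wild-type pieces (black) lie within 0.01 of 0, where the use of their own mean as reference centres them.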

How the data were processed

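RNA of 9 liver and tumor pieces was extracted with the RNAEasy kit and hybridised to Affymetrix 3' arrays, per the labels' protocols. The deposited values are log2 expression of each probe set. Per the submitters' processing notes the authors ran RMA, and the software was Affymetrix Expression Console, version 1.3.1.187. RMA gives all arrays nearly the same distribution, so a change shared by most genes would not show. Gene names came from the annotation of the array platform: 34958 had 1 symbol, 932 several and 9211 none, and 34754 were found in RefSeq (GRCm38.p6), which changed 0 symbols. The brightest probe set stood for each gene, which mattered for 9012 of 18194 genes.

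The test was limma 3.58.1, run in R 4.3.3 (lmFit and eBayes, 1 mean per group, all 9 arrays, 6 residual degrees of freedom), with Benjamini-Hochberg adjustment over 13888 genes. A gene was called at an adjusted p under 0.05 and a log2 difference of at least 1. The step was tested on simulated data of 13888 genes, 200 of them changed, with noise at the spread among pieces of a tissue. For tumor against wild-type liver 24 of 50 changes of size 1 and 50 of 50 each of sizes 2, 3 and 4 were called. Of the unchanged genes 0 were called. At size 1 an estimate that falls under 1 cannot be called. Differences between animals were not simulated, so the 0 says nothing about them. Tests across all pieces were not blocked on the replicate number, because same-numbered tumor and wild-type pieces did not deviate together (r = -0.033, 0.049 and -0.11). Tumor and adjacent pieces, which share a mouse, were not checked in this way. Their comparison is unpaired throughout.

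The members, the 79 gene lists and the chromosome blocks were chosen with earlier results of these data known, so counts over lists are descriptions and no set test was made. The result of 1 list is not reported here. Named genes are the 20 largest increases and decreases measured on both sides, ranks 11 to 20 of all increases and decreases, Sart1, and from each list the called members ranked 1 to 5 by adjusted p in each direction; others are marked. Marker sums add values returned from log2 to the linear scale. No source used here gives scan dates or batches.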

Additional observations from a re-analysis of the deposited data

Results flagged for a closer look

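Only 7 genes were called in opposite directions in tumor and in adjacent liver against the shared wild-type pieces. Calls in opposite directions fix a difference of at least 2 between the tissues, so the values are a description with no test. Hsd17b6, a steroid and retinoid dehydrogenase, averaged 10.37 in wild-type pieces, 8.24 in adjacent ones and 11.74 in the carcinoma, so tumor exceeded adjacent liver by 3.51 (SE 0.20). Cidec, a lipid droplet protein, read 6.45, 4.94 and 8.0 in that order, with tumor above adjacent liver by 3.06 (SE 0.35). Cyp2b9, a P450, read 8.59, 7.29 and 10.32, with tumor above by 3.03 (SE 0.325).

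The other 4 were high in adjacent liver and low in tumor. Slc3a1, a subunit of the cystine and basic amino acid importer, gave -3.39 (SE 0.15) for tumor minus adjacent liver, and the P450 Cyp2c55 -2.99 (SE 0.17). Adam11, a disintegrin without protease activity, gave -2.45 (SE 0.13) and the acyl-CoA thioesterase Acot3 -2.39 (SE 0.13). Among probe sets with no gene symbol, which no comparison above uses, 255 of 3223 tested (7.91%) differed enough for a call. Of these 150 were higher in the tumor and 105 lower. The share called was below the 13.0% of all tested genes.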

How the results depend on the processing

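Counts of calls moved mainly with the fold threshold. Testing against 2-fold itself (limma's treat) called 728 genes higher and 403 lower, and a 1.5-fold threshold 2296 and 1431. Other settings gave 922 to 1343 higher and 566 to 834 lower, and leaving out 1 array 1151 to 1203 and 615 to 661. A block on the replicate number gave 1169 and 638 and changed no named call of tumor against wild-type liver. Its effect on tumor against adjacent liver was not tested. Of 292 called genes named in the text, 254 kept direction and call under the 20 alternatives that keep the 2-fold threshold, 0 reversed, 38 fell under the threshold in at least 1, 30 of them when probe sets were averaged, and 12 with an array left out. These 12 were Dlk1 and Sult2a2 (given above), and Itga4, Pdk4, Me1, Lrat, Cdh2, Slc25a4, Timd4, Tnfaip3, Psmb9 and Tnfrsf18, whose smallest differences lay between 0.88 (Itga4 without wild-type piece 2) and 0.98 in size. Treat, not among the 20, called 247 of the 292. Of 52 list counts of 5 or more, 12 moved over 1.5 times under the 20, as given beside them, and 0 did with an array left out; 23 fell by over 1.5 times under treat and 26 rose so at 1.5-fold, which stand beside no count. The causes were not tested.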

Other observations

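Families were also read by symbol alone, over 242 stems of at least 8 tested genes that no list chose. After the annexins, the highest shares called higher belonged to Cxcl chemokines (53.8%), the Tubb tubulins (4 of 8) and the Abcc efflux pumps (5 of 10). The highest shares called lower belonged to the Sult sulfotransferases (4 of 8), the Slco organic anion carriers (4 of 8), the Nat acetyltransferases (45.5%) and the Cyp P450 genes (45.0%, 27 of 60). Close copies within these families can share signal.

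For 800 called genes another probe set was tested, 1272 in all. Of these, 745 (58.6%) were called the same way, 0 the opposite way, 420 had the same sign without a call and 107 the opposite sign without a call. For 54 genes named above another tested probe set was not called. Where no value or range is given beside the gene it kept the sign, at 0.51 (Rspo3) to 0.95 (Me1) in size, except in Brca1, where it showed no difference to 2 decimals. Of 657 tested probe sets with several symbols 13.2% were called, against 13.0% of all tested genes.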
